A study of Mus musculus with 48 samples.

Results

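Libraries of splenic NK cells and of sorted immature NK cells (iNK) from Cre control mice were compared across all genes. The members were the 6 count tables titled as cWT, NK and cWT, iNK, with 3 libraries a side, of 48 libraries in the whole series. The mice carried the Ncr1Cre allele, in which Cre is driven from Ncr1, a gene of NK cells and other innate lymphocytes, and they are labelled cWT, with no floxed Bach2 allele named for them. The treatment is given as N/A, and the age of the animals, the surface markers of each sort and the animal behind each library are not given in the labels. Cre control mice also gave sorted fractions named mNK1 and mNK2, with 3 libraries each, which served as references for where the NK fraction lies. Repeats of the comparison came from 6 NK and iNK libraries of cKO mice (Bach2flox/flox Ncr1Cre), in a fit of 12 with their mNK1 and mNK2 libraries. Stage genes came from 16 libraries of sorted subsets of WT mice in a separate experiment.

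NK cells are cytotoxic lymphocytes that mature in bone marrow and spleen. In the mouse, maturing NK cells gain the integrin chain CD11b, encoded by Itgam, and the inhibitory receptor KLRG1, and they store granzymes and perforin in granules that are released onto target cells. Immature cells carry more of the interleukin 7 receptor, encoded by Il7r, and of stem-like factors such as TCF1, encoded by Tcf7. Liver and tissue group 1 innate lymphoid cells (ILC1), which share markers with immature NK cells, express the chemokine receptor CXCR6.

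The 12 cWT libraries held 14070792 to 18907413 counts over 24328 gene symbols, so depth was similar in all fractions. A floor of 3 counts in 1 library stood for 0.150 to 0.224 CPM (counts relative to the library total), and such floors cover counting error only. Levels below are CPM scaled by TMM factors and are listed in the order of replicates 1, 2 and 3. The differences are log2 fold changes ± SE of NK over iNK from the edgeR quasi-likelihood F test, with the replicate number as a block and p-values adjusted by the Benjamini-Hochberg method over 11881 genes. Libraries of equal number deviated together in iNK and NK, but the labels do not say which libraries came from separate animals, so the p-values measure only the spread between these samples. In bulk RNA, fewer cells of a type and less RNA per cell cannot be told apart.

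The 3 marker genes separated the NK fraction from iNK; whether a product of any of them was used in the sorts is not given. Itgam was measured at 5.90, 7.76 and 7.50 CPM in iNK and at 287, 317 and 281 CPM in NK. The lowest NK library lay far above the highest iNK library, and the difference was 5.39 ± 0.09 (adjusted p = 9.13e-14). The other sorted fractions held 163, 191 and 197 CPM in mNK1 and 465, 496 and 529 CPM in mNK2, so NK lay between mNK1 and mNK2 with no overlap. Il7r was measured at 420.3, 370.2 and 461 CPM in iNK and at 56.8, 54.95 and 68.4 CPM in NK. It fell in NK, with a log2 fold change of -2.80 ± 0.10 (adjusted p = 2.06e-10). Its levels were 24.8, 18.4 and 23.01 CPM in mNK1 and 3.51, 2.29 and 4.40 CPM in mNK2, so that the NK fraction lay between iNK and mNK1 for this gene. Cxcr6 was measured at 171, 184 and 207 CPM in iNK and at 25.3, 25.03 and 31.8 CPM in NK (log2 fold change -2.78 ± 0.09, adjusted p = 1.33e-10). Cxcr6 was close to absent from mNK2, at 0.747, 0.624 and 1.12 CPM, and stood at 5.69, 4.88 and 7.40 CPM in mNK1. The 2 early markers therefore placed NK between iNK and mNK1, while Itgam placed it between mNK1 and mNK2.

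**Figure D1:**
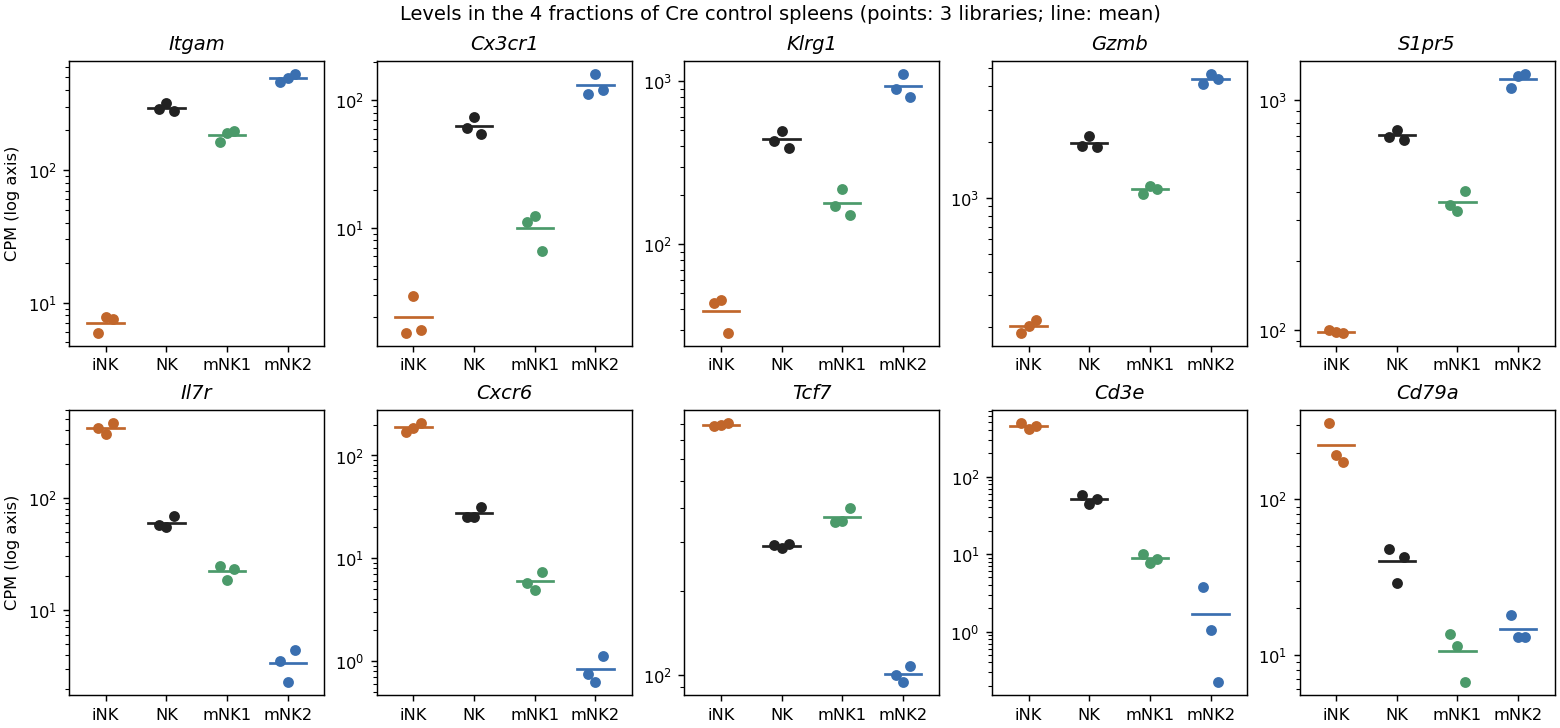
Level of 10 genes in CPM on a log axis in the 3 libraries of each cWT fraction (points) with the mean (line). NK lies between mNK1 and mNK2 for Itgam, Cx3cr1, Klrg1, Gzmb and S1pr5, between iNK and mNK1 for Il7r, Cxcr6, Cd3e and Cd79a, and between mNK1 and mNK2 for Tcf7.

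Across all genes, 3292 of 11881 were called between NK and iNK at an adjusted p under 0.05, which is 27.7%. Of these, 1673 were higher in NK (14.1%) and 1619 were lower (13.6%). These shares are the background for the counts of gene lists below, and no list was tested against them. At 2-fold or more, 368 were higher (3.1%) and 639 were lower (5.38%). The libraries of NK and iNK did not overlap for 4600 genes (38.7%), and the median log2 fold change over all genes was 0.000588.

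Among called genes with at least 10 CPM in the higher fraction and no overlap between libraries, the 12 with the highest log2 fold changes in NK included genes of adhesion, migration and granule proteins. Cx3cr1, the receptor of fractalkine that mature circulating NK cells carry, was at 1.51, 2.95 and 1.59 CPM in iNK and at 60.7, 74.2 and 54.3 CPM in NK (log2 fold change 4.98 ± 0.17). Cma1, a mast cell chymase gene, was at 21.6, 16.7 and 22.1 CPM in iNK and at 693, 529 and 591 CPM in NK (4.89 ± 0.21). Serpinb9b, of the family of granzyme B inhibitors, was at 15.7, 20.2 and 22.2 CPM in iNK and at 236, 309 and 236 CPM in NK (3.75 ± 0.10). In each of the 3 genes the fractions were separate by a wide margin, where separate libraries were a condition of the rule. The others were Itgam, Gpx8 (5.32), Rhpn1 (5.17), Cdc20b (4.93), Cdh22 (4.07), Anxa8 (3.99), Parm1 (3.96), Cyp17a1 (3.71) and Ngp. Ngp, a neutrophil granule gene, had 3 or fewer counts over the iNK libraries, so no fold is given, and its NK libraries held 12.9, 6.02 and 31.4 CPM. Its call (adjusted p = 0.0399) was lost in 5 of 15 alternatives, among them each in which 1 iNK library was left out. Gpx8 and the granzyme gene Gzma lie inside the span of Cdc20b on chromosome 13 in RefSeq (GRCm38.p6), and since the strand of counting is not given, reads of these genes cannot be told apart with certainty.

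The 12 genes that fell furthest in NK under the same rule included genes known from T cells, B cells and lymphocyte homing. Cd3e, a signalling chain of the T cell receptor complex, was at 489, 412 and 453 CPM in iNK and at 57.4, 44.1 and 51.5 CPM in NK (log2 fold change -3.15 ± 0.36, adjusted p = 8.54e-04). Cd3d (-3.09) and Cd3g (-3.05), of the same complex, fell alongside it. Gpr15, a lymphocyte homing receptor, was at 80.2, 90.5 and 76.7 CPM in iNK and at 7.39, 10.6 and 9.04 CPM in NK (-3.20 ± 0.18). Ms4a1, which encodes the B cell protein CD20, was at 98.5, 93.9 and 66.5 CPM in iNK and at 13.8, 12.9 and 7.19 CPM in NK (-2.95 ± 0.21). No NK library reached the lowest iNK library in any of them, which the rule required. The other members were Cd8b1 (-3.33), Pacsin1 (-3.31), Prss12 (-3.29), Themis (-3.27), Lypd6b (-3.15), Fcrl1 (-3.06) and Nsg2 (-2.95).

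**Figure D2:**
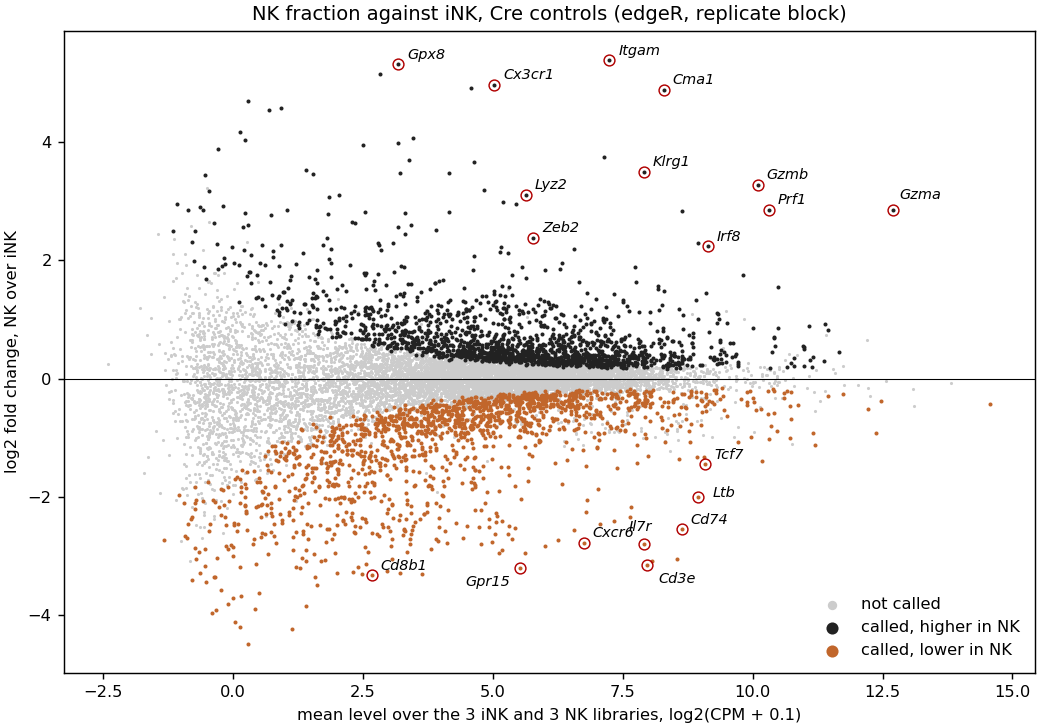
Log2 fold change of NK over iNK against the mean level over both fractions, one point per tested gene, black where called higher in NK, orange where called lower and grey where not called. The plot leaves out 28 genes with 3 or fewer counts over the libraries of a fraction. The labelled genes run from Itgam at 5.39 to Cd8b1 at -3.33.

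Most core NK genes were higher in NK. Of 15 core NK genes, 10 rose and 0 fell, with a median log2 fold change of 0.92. Gzmb, which encodes the protease granzyme B, was at 187, 205 and 218 CPM in iNK and at 1898, 2171 and 1883 CPM in NK (log2 fold change 3.29 ± 0.07, adjusted p = 8.13e-13). Prf1, which encodes the pore-forming protein perforin, was at 291, 312 and 317 CPM in iNK and at 2183, 2574 and 1937 CPM in NK (2.86 ± 0.09). Gzma, which encodes granzyme A, was at 1835, 1150.3 and 1840.2 CPM in iNK and at 13654, 9246 and 11996 CPM in NK (2.85 ± 0.31). All 3 were far from overlapping, but the libraries of Gzma were spread more widely than those of the other pair. The receptor genes Klrb1c (0.92), Klrk1 (0.53), Cd244 (1.12) and Fcgr3 (0.82), which encode NK1.1, NKG2D, 2B4 and CD16, also rose. Ncr1, from which Cre is driven in these mice, was at 78.1, 55.03 and 355 CPM in iNK and at 231, 193 and 837 CPM in NK (1.52 ± 0.15). The fractions overlapped for Ncr1, with replicate 3 highest in each, also in mNK1 (155, 179 and 772 CPM) and mNK2 (336, 284 and 1133 CPM), and the call was lost in 2 of 15 alternative analyses. The 5 core genes that were not called were Il2rb (-0.23), Ifng (0.16), Klrd1 (0.42), Nkg7 (0.65) and Tyrobp (1.14), and Tyrobp ran from 214 to 720 CPM within iNK alone.

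Of 25 cytotoxic and effector genes, 12 rose, 3 fell and 10 were not called in NK, with a median log2 fold change of 0.22. Serpinb9 (1.46), a granzyme B inhibitor, and Fasl (1.25), which encodes the death ligand Fas ligand, rose beside Gzmb and Prf1. The 3 that fell were Tnf, Tnfsf10 and Gzmm. Tnf, an inflammatory cytokine gene, was at 39.2, 36.99 and 40.8 CPM in iNK and at 11.3, 10.6 and 11.8 CPM in NK (-1.80 ± 0.11). Tnfsf10, which encodes the death ligand TRAIL known from immature NK cells and ILC1, was at 20.2, 21.2 and 24.3 CPM in iNK and at 5.06, 6.26 and 9.29 CPM in NK (-1.68 ± 0.21). Gzmm, another granzyme gene, had a difference of -0.85 ± 0.21, and this call was lost in 5 of 15 alternatives.

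Receptor genes moved in both directions. Of 28 tested NK receptor genes, 16 rose and 8 fell. Klra9, a Ly49 receptor gene, was at 159, 131 and 212 CPM in iNK and at 766, 738 and 949 CPM in NK (2.30 ± 0.10), and reads of the closely related Klra genes may be counted for each other. Klrb1b (1.22), another C-type lectin receptor gene, also rose. Cd160 (-1.07), Cd226 (-1.19), which encodes DNAM-1, Crtam (-1.17), and Klrc1 (-0.58), which encodes NKG2A, fell. Of 20 late maturation genes, 15 rose and 1 fell, with a median log2 fold change of 0.97. Klrg1 was at 43.7, 45.3 and 28.6 CPM in iNK and at 432, 499 and 388 CPM in NK (3.50 ± 0.09). The member that fell was Ly6c2, which encodes a Ly6C protein, at 2088, 1089 and 1893 CPM in iNK and 769.6, 409 and 745 CPM in NK (-1.40 ± 0.18). Ly6c2 did not follow the order of the stages, since mNK1 held 139.991, 116 and 117 CPM and mNK2 held 1372, 930.4 and 976 CPM, and its call was lost in 1 of 15 alternatives.

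Among 26 trafficking genes, 12 rose and 9 fell. S1pr5, the sphingosine phosphate receptor that mature NK cells use to leave bone marrow and lymph nodes, was at 100.028, 98.3 and 97.3 CPM in iNK and at 695, 742 and 672 CPM in NK (2.83 ± 0.08). S1pr1, its relative used for egress by T cells, went the other way, from 316, 324 and 318 CPM in iNK to 157, 181 and 163 CPM in NK (-0.93 ± 0.07). Cxcr3, whose product binds interferon-induced chemokines, was at 547, 576 and 520.2 CPM in iNK and at 207, 207 and 228 CPM in NK (-1.36 ± 0.08). Cd69, whose product holds S1PR1 inside the cell, was at 336, 294 and 322 CPM in iNK and at 120.5, 117 and 118 CPM in NK (-1.42 ± 0.07). The libraries of the 2 fractions did not overlap for any of these 4 genes.

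Among 28 tested transcription factor genes of NK cells, 12 rose and 6 fell. Irf8, a factor needed in NK cell responses to virus, was at 207, 208 and 168 CPM in iNK and at 968, 1081 and 735 CPM in NK (2.25 ± 0.08). Zeb2, a repressor that acts in terminal NK maturation, was at 16.5, 18.3 and 17.7 CPM in iNK and at 81.3, 98.5 and 94.7 CPM in NK (2.38 ± 0.09). Prdm1, which encodes BLIMP1, was at 11.8, 13.2 and 13.97 CPM in iNK and at 58.6, 54.5 and 58.7 CPM in NK (2.15 ± 0.10). The T-box genes moved less: Tbx21, which encodes T-bet, had a difference of 0.95 ± 0.09, and Eomes one of 0.84 ± 0.06. Tcf7 was at 784, 796 and 806 CPM in iNK and at 292, 286 and 296 CPM in NK (-1.45 ± 0.06, adjusted p = 9.83e-10). Its relative Lef1 (-0.95), Ikzf2 (-2.28), which encodes HELIOS, and Foxo1 (-0.59) fell as well. Bach2, a repressor of lymphocyte effector programs and the gene deleted in the cKO mice, was at 11.7, 12.7 and 16.1 CPM in iNK and at 13.3, 9.56 and 19.03 CPM in NK, and it was not called (0.02 ± 0.19, adjusted p = 0.953).

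Early genes and genes associated with ILC1 fell in NK. Of 20 early and stem-like genes, 16 fell and 1 rose, with a median log2 fold change of -1.23. Emb, which encodes embigin, was at 773, 763 and 773 CPM in iNK and at 319, 294 and 309 CPM in NK (-1.33 ± 0.06). Slamf6, a receptor of the SLAM family, was at 213, 203 and 197 CPM in iNK and at 54.2, 57.4 and 56.6 CPM in NK (-1.86 ± 0.09). The member that rose was Il18r1 (0.23 ± 0.07), a subunit of the interleukin 18 receptor, and this call was lost in 7 of 15 alternatives. Of 18 tested ILC1-associated genes, 15 fell and 0 rose, with a median of -1.55. Ltb, which encodes lymphotoxin beta, was at 924, 715 and 735 CPM in iNK and at 227, 161 and 199 CPM in NK (-2.01 ± 0.11). Of the 16 ILC2 and ILC3 genes only 8 were tested, since the others were too low, and 5 of these fell and 1 rose.

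Of 24 cytokine receptor genes, 7 rose and 7 fell. Il12rb2 (1.20 ± 0.10) and Il18rap (0.85 ± 0.07), subunits of the receptors of the activating cytokines interleukin 12 and interleukin 18, rose, as did Il10ra (0.94 ± 0.07) and Csf2rb (1.10 ± 0.09). Il21r (-1.37 ± 0.09), Il4ra (-1.43 ± 0.12) and Il6st (-2.94 ± 0.22) fell beside Il7r. Of 21 checkpoint and costimulation genes, 4 rose and 10 fell. Entpd1, which encodes the ATP-degrading enzyme CD39, was at 7.35, 5.41 and 4.16 CPM in iNK and at 46.01, 59.3 and 47.1 CPM in NK (3.19 ± 0.18). Nt5e, which encodes CD73, the enzyme that acts on the product of CD39, was at 48.9, 39.7 and 34.9 CPM in iNK and at 15.7, 15.5 and 12.8 CPM in NK (-1.49 ± 0.13). The genes of these 2 consecutive enzymes therefore moved in opposite directions. Among 25 SLAM family and adaptor genes, 9 rose and 5 fell, with the B cell and NK adaptor gene Lat2 higher (1.01 ± 0.06) and the T cell adaptor gene Lat lower (-0.50 ± 0.07).

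Most cell cycle genes fell, with 32 of 40 lower, 1 higher and a median log2 fold change of -0.70. Ccnb2, which encodes the mitotic cyclin B2, was at 37.8, 50.8 and 42.9 CPM in iNK and at 14.7, 21.4 and 23.9 CPM in NK (-1.14 ± 0.14). Rrm2, a subunit of ribonucleotide reductase, was at 65.8, 110.1 and 86.7 CPM in iNK and at 37.1, 57.9 and 55.6 CPM in NK (-0.80 ± 0.10). The member that rose was the cyclin gene Ccnd3 (0.79 ± 0.09). NK also lay below mNK1 for Ccnb2, at 31.8, 56.6 and 36.5 CPM, and above mNK2, at 5.15, 6.59 and 6.12 CPM. Against mNK1, 28 of the 40 were lower in NK and 1 was higher, and against mNK2, 27 were higher and 2 were lower.

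Of 29 tested interferon response genes, 13 fell and 0 rose, among them Ifit3 (-1.56 ± 0.12), Ifit1 (-1.36 ± 0.15), Rsad2 (-1.55 ± 0.18) and Usp18 (-0.72 ± 0.09). Of 47 tested ribosomal protein genes, 8 fell and 0 rose, with a median of -0.86, so that most of this list did not pass the test. Rpl4 was at 2152, 2309 and 2258 CPM in iNK and at 1086, 1095 and 1146 CPM in NK (-1.01 ± 0.06). Of 49 oxidative phosphorylation genes, 0 rose and 1, Atp5b (-0.21 ± 0.06), fell, and that call was lost in 5 of 15 alternatives. Among 21 glycolysis genes, 5 rose and 7 fell, with Pfkp higher (0.58 ± 0.08) and Pdk1, a brake on pyruvate entry into mitochondria, lower (-1.63 ± 0.10). Of 22 sterol synthesis genes, 1 rose (Scd2, 0.60 ± 0.10) and 4 fell, among them Scd1 (-2.38 ± 0.31). Of 29 immediate early genes, 6 rose and 6 fell, with Egr1 higher (0.47 ± 0.09) and Fos lower (-0.64 ± 0.06). In cKO mice Egr1 was not called (-0.23 ± 0.18, adjusted p = 0.383 by edgeR), and Fos fell (-1.15 ± 0.08). Over all tested genes, 14.1% were called higher in NK and 13.6% lower, and several of the counts in this paragraph lie near these shares.

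**Figure D3:**
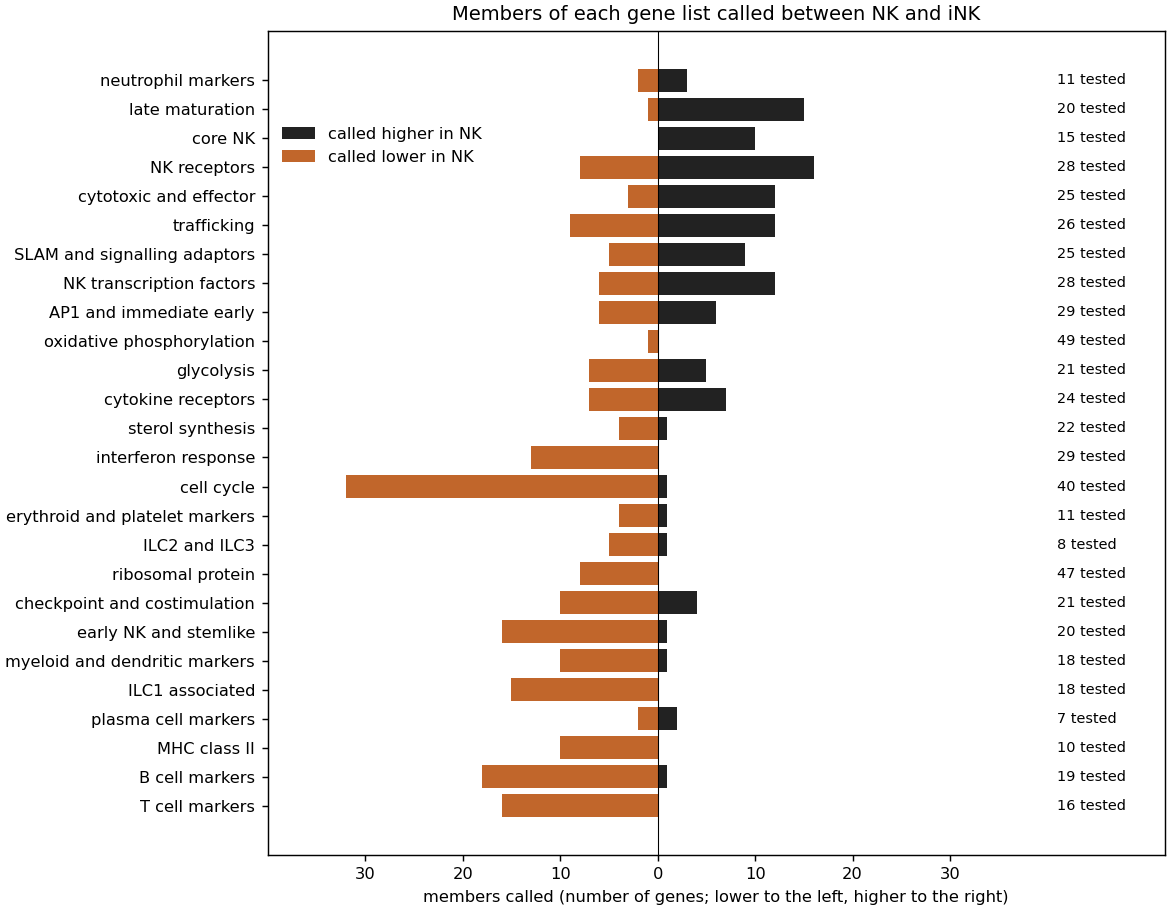
Number of members of each of 26 gene lists called higher in NK (black, to the right) or lower in NK (orange, to the left) than in iNK, ordered by the median log2 fold change of the list, with the number of members tested. Late maturation and core NK genes stand at the upper end with 15 of 20 and 10 of 15 higher, and T and B cell markers at the lower end with 16 of 16 and 18 of 19 lower. The median of the neutrophil list rests on genes near 0 in iNK, whose folds have no bound.

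Markers of other blood cells differed between the fractions beside all these groups. All 16 T cell markers fell in NK (median -2.73), and their summed level was 2250.05 to 3013 CPM in iNK, 639.6 to 739.98 CPM in NK, 563 to 582 CPM in mNK1 and 404 to 421 CPM in mNK2. Among them Cd4 was at 9.84, 6.80 and 7.29 CPM in iNK and at 1.45, 1.24 and 2.20 CPM in NK, and Cd8a was at 10.5, 10.4 and 8.99 CPM in iNK and at 1.14, 1.71 and 0.350 CPM in NK. Cd3d, Cd3e and Cd3g had means of 1.83, 1.69 and 5.35 CPM in mNK2. Most of the T cell sum in mNK2 therefore came from other members. In iNK of the separate WT experiment the T cell sum was 1464 to 1680.3 CPM over 4 libraries, with Cd3e at 119.2 ± 28.3 CPM (SD, n = 4). Of 19 B cell markers, 18 fell (median -2.39) and Cd72 rose (0.39 ± 0.06). The B cell sum was 874 to 1259 CPM in iNK, 384 to 397 CPM in NK, 304 to 322 CPM in mNK1 and 305 to 332 CPM in mNK2. Cd72 alone had means of 176 CPM in iNK, 231 CPM in NK, 260 CPM in mNK1 and 256 CPM in mNK2. Most of the B cell sum outside iNK was therefore this gene. Cd79a, which encodes a chain of the B cell receptor, was at 310.1, 192 and 174 CPM in iNK and at 47.8, 29.1 and 42.8 CPM in NK. All 10 MHC class II genes fell, and their sum was 1284 to 2285 CPM in iNK and 359 to 430 CPM in NK. The 3 sums were thus higher in every iNK library than in any NK library, and none of the defining genes Cd3e, Cd4, Cd8a and Cd79a was at 0 in a library of either fraction. The part of these cells in the differences between NK and iNK was not tested.

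Myeloid and dendritic cell markers fell in 10 of 18 tested genes and rose in 1, Lyz2, at 10.4, 8.66 and 10.9 CPM in iNK and 114, 63.04 and 89.8 CPM in NK (3.11 ± 0.39). Their sum overlapped between the fractions, at 324 to 704 CPM in iNK and 274 to 529 CPM in NK. The sum of 13 neutrophil markers went the other way, from 22.04 to 34.8 CPM in iNK to 60.6 to 97.2 CPM in NK, and was 72.1 to 284 CPM in mNK1. Of 11 tested neutrophil markers, 3 rose, 2 fell and 6 were not called. Cxcr2 alone had a mean of 17.5 CPM in iNK and 47.0 CPM in NK, where the sum had means of 27.3 and 82.1 CPM. S100a8, an abundant gene of neutrophils, had no count in the 3 iNK libraries, which allows up to 0.197 CPM in a library, and was at 2.02, 0.767 and 2.30 CPM in NK. Erythroid and platelet markers overlapped, at 574 to 612 CPM in iNK and 595 to 691 CPM in NK. The sum of ILC2 and ILC3 genes was 157.2 to 169.9 CPM in iNK and 140.2 to 149.8 CPM in NK. Of 7 tested plasma cell markers, 2 rose and 2 fell.

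**Figure D4:**
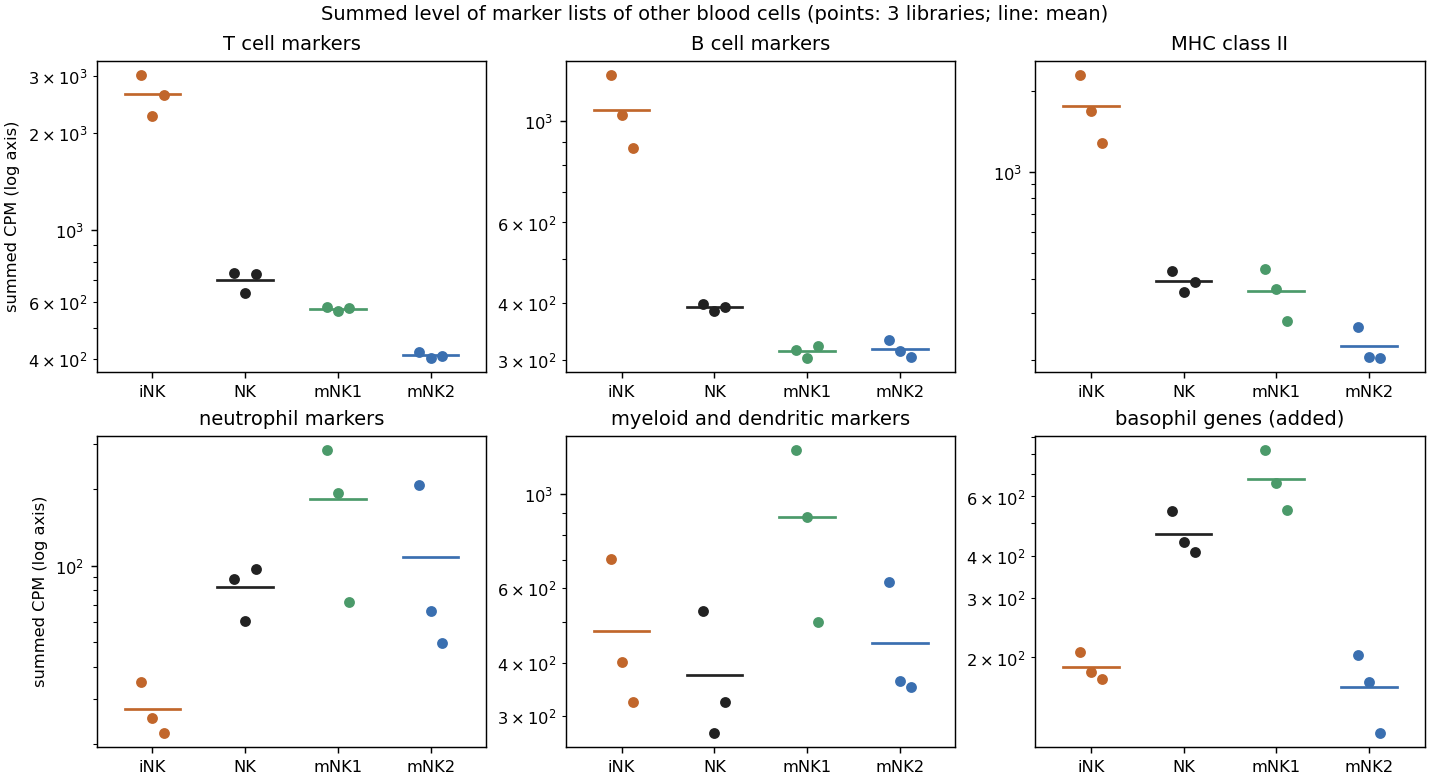
Summed level in CPM, on a log axis, of 5 marker lists of other blood cells and of 7 basophil genes chosen after their values were seen, in the 3 libraries of each cWT fraction (points) with the mean (line). T cell, B cell and MHC class II sums are highest in iNK, and neutrophil and basophil sums are lower in iNK than in NK.

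Where the NK fraction lies among the sorted stages was asked with genes chosen in other libraries. In the WT experiment, 840 genes were at least 2-fold lower in KLRG1-positive mNK2 than in iNK (early genes) and 397 were at least 2-fold higher (late genes). Members of the marker lists of other blood cells were left out of both sets, but genes of such cells outside those lists were not. The basophil gene Fcer1a is among the early genes. So are Foxp3 and Cd40lg, known from T cells, and Btk and Tnfrsf13c, known from B cells. The part of such genes in the early score and in the iNK share below was not tested. Of the 840 early genes, 732 (87.1%) had a mean in the NK fraction between those of cWT iNK and mNK2, and of the 397 late genes 346 did (87.2%). Against iNK, 540 early genes were called lower and 17 higher in NK, and 304 late genes were called higher and 1 lower. Against mNK1, 26 early genes were called higher in NK and 123 lower, and 116 late genes were called higher and 6 lower. Against mNK2, 363 early genes were called higher in NK and 0 lower, and 4 late genes were called higher and 112 lower. The NK fraction thus differed from both ends, with early genes below iNK and above mNK2.

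The mean log2(CPM + 1) of late genes minus that of early genes was -0.81, -0.69 and -0.72 in iNK, 1.04, 1.20 and 1.01 in NK, 0.47, 0.55 and 0.63 in mNK1, and 1.84, 2.02 and 2.04 in mNK2. The 4 fractions did not overlap on this score, in the order iNK, mNK1, NK and mNK2. On a line from iNK to mNK2 of the same replicate number, NK lay at 67.3% ± 4.22 (SD, n = 3) and mNK1 at 47.6% ± 1.75. The root mean square distance of NK over the stage genes, on the log2 scale, was 1.16 ± 0.05 to iNK, 0.61 ± 0.08 to mNK1 and 0.76 ± 0.06 to mNK2. The values for replicate 1 and replicate 3 placed NK nearer to mNK1 than to mNK2 by a wider margin than those of replicate 2, where the distances were 0.70 and 0.72.

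A weighted mixture of the 3 sorted fractions was then fitted to each NK library over the 1237 stage genes. The closest mixture held 10.95%, 16.3% and 15.8% iNK, 35.5%, 23.8% and 40.1% mNK1 and 53.6%, 59.9% and 44.1% mNK2. The means were 14.4% ± 2.96 for iNK, 33.1% ± 8.43 for mNK1 and 52.5% ± 7.96 for mNK2 (SD, n = 3). The mixture lay at a root mean square distance of 0.32 ± 0.02 from NK on the log2(CPM + 1) scale. These shares are of RNA, and they are a fit of the 3 fractions with no other cell in it. With all tested genes in the fit, the iNK share was 19.3% ± 4.21. With the means of each stage in place of same-numbered libraries, the shares were 11.5% iNK, 37.6% mNK1 and 50.8% mNK2.

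Genes that are close to exclusive to a sorted fraction were also read one by one, and they were picked from the sorted fractions alone, after the data had been seen. For 8 genes with at least 20 CPM in iNK and under 5% of that in mNK1 and mNK2, the NK level was 10.3% to 20.3% of the iNK level, with a median of 11.8%. These were Gpr15, Pacsin1, Sit1, Cd3g, Cd3d, Cd3e, Pou2af1 and Cxcr6, and 4 of them stand on the T or B cell lists. For 8 genes with at least 20 CPM in mNK2, under 5% of that in iNK and under 20% in mNK1, the NK level was 43.3% to 60.8% of the mNK2 level, with a median of 49.0%. These were Cdc20b, Gpx8, Anxa8, Cma1, Rhpn1, Gp1bb, Klrg1 and Cx3cr1. The level that picked each gene is also the divisor of its percentage, so the percentages are a description only. The limit on mNK1 was 5% in the first set and 20% in the second, so the 2 medians are not like for like.

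**Figure D5:**
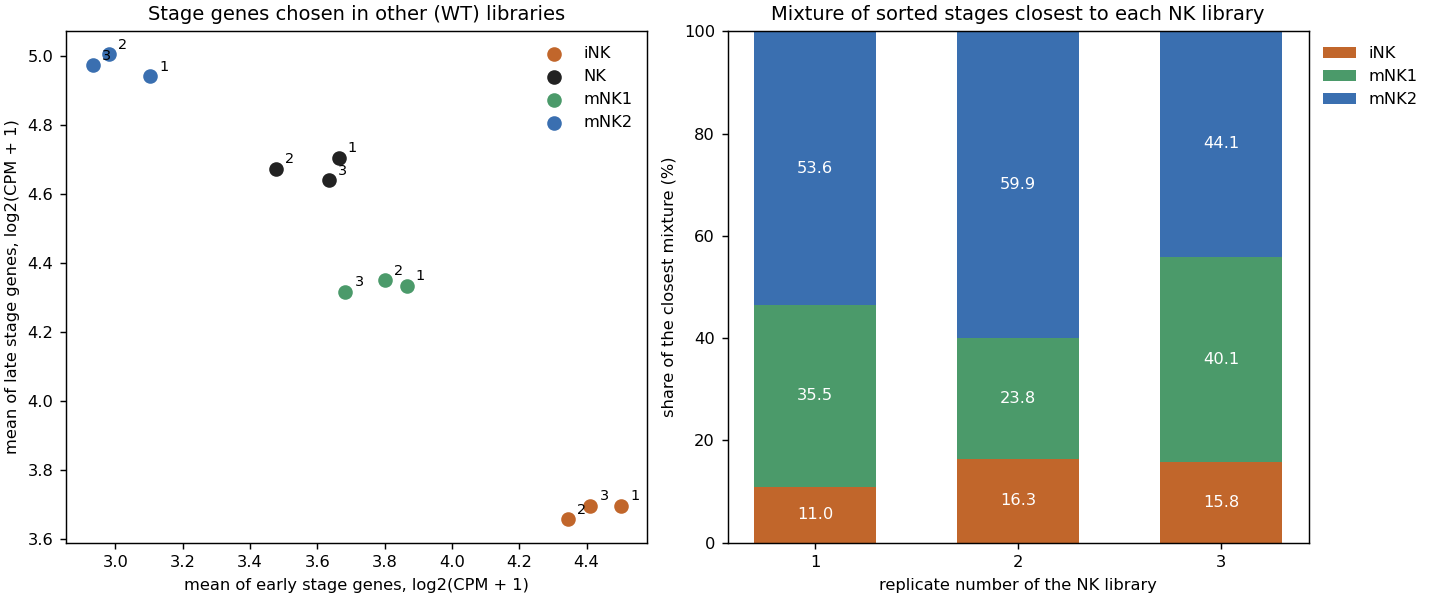
Left, mean log2(CPM + 1) of 397 late genes against that of 840 early genes in each cWT library, labelled by replicate number. Right, shares of iNK, mNK1 and mNK2 in the mixture closest to each NK library; NK lies between mNK1 and mNK2 on the left, and mNK2 is the leading share on the right at 44.1% to 59.9%.

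Against mNK1, 839 genes were called (7.06%), 395 higher in NK (3.32%) and 444 lower (3.74%). Equal numbers did not deviate together for this pair, and without the replicate block 459 were called, 242 higher and 217 lower. The count rested on single libraries, since it was 319 without NK replicate 1, 440 without NK replicate 2, 335 without mNK1 replicate 1 and 498 without mNK1 replicate 2. DESeq2 called 813, of which 288 were higher. Late genes were among those higher in NK, with Cx3cr1 at 2.67 ± 0.14, Klrg1 at 1.30 ± 0.08, Zeb2 at 1.14 ± 0.09 and Gzmb at 0.84 ± 0.06. Genes of the iNK fraction were also higher in NK than in mNK1, with Cxcr6 at 2.20 ± 0.11, Il7r at 1.45 ± 0.10 and Gpr15 at 2.18 ± 0.22. Of the 16 T cell markers, 9 were higher in NK than in mNK1 and 1 was lower (median 0.87), with Cd3e at 2.54 ± 0.38, and of the 19 B cell markers, 15 were higher and 0 lower (median 1.75). The part of these cells in the differences from mNK1 was not tested. Emb (-0.90 ± 0.06), Slamf6 (-0.96 ± 0.09) and Tcf7 (-0.34 ± 0.06), by contrast, were lower in NK than in mNK1. Of the 20 late maturation genes, 12 were higher and 2 lower in NK than in mNK1, and of the 20 early genes, 3 were higher and 10 lower.

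Against mNK2, 1188 genes were called (10%), 805 higher in NK (6.78%) and 383 lower (3.22%). At 2-fold or more, 463 were higher in NK (3.9%) and 13 were lower (0.109%). Deviations from the group means of same-numbered NK and mNK2 libraries correlated at 0.686, 0.491 and -0.277. Without the replicate block 252 were lower, and without mNK2 replicate 1 or replicate 2 the count of calls was 768 or 678. The count lower in NK was 188 to 256 when any of the 6 libraries was left out. Il7r (4.16 ± 0.12), Cxcr6 (5.04 ± 0.14), Ltb (2.77 ± 0.12) and Tcf7 (1.54 ± 0.06) were higher in NK. Gzmb (-1.15 ± 0.06), Klrg1 (-1.08 ± 0.08), Cx3cr1 (-1.05 ± 0.13) and Klra9 (-1.20 ± 0.10) were lower in NK. Of the 20 early genes, 15 were higher and 0 lower in NK, and of the 20 late genes, 1 was higher and 14 were lower. T cell markers were higher in NK than in mNK2 in 11 of 16 genes (median 2.997) and B cell markers in 14 of 19 (median 1.45), with 0 lower in either list, and their part in these differences was not tested. The comparisons with iNK, mNK1 and mNK2 share the NK libraries.

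Few genes were called with NK outside the range of the stages. The NK mean lay between the lowest and highest of the 3 stage means for 8574 genes (72.2%), above them for 1703 (14.3%) and below them for 1604 (13.5%). By the edgeR test, 0 genes were called above all 3 stages (0%), where 16 passed at an unadjusted p under 0.05, DESeq2 called 0 and limma voom called 2, Lrrc41 and Nfxl1. The edgeR test called 3 below all 3 stages (0.0253%), which were Cybb, Actb and AI607873, where 42 passed at an unadjusted p under 0.05. Without the replicate block Cybb was lost, leaving 2. DESeq2 called 5 below all stages, the same 3 with Grhl1 and Ms4a4b, and limma voom called 15, the same 3 among them. Cybb, which encodes a subunit of the phagocyte NADPH oxidase, was at 16.005, 13.5 and 8.84 CPM in iNK, 3.35, 3.48 and 2.35 CPM in NK, 16.6, 11.95 and 5.20 CPM in mNK1 and 7.02, 5.55 and 5.30 CPM in mNK2. Actb, the gene of beta-actin, was at 22623, 23167 and 16962 CPM in NK, below 28516, 26923 and 28477 CPM in iNK and 54254, 56517 and 50569 CPM in mNK2.

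The comparison was repeated in cKO mice, whose libraries are separate, in a fit of 12 cKO libraries that included mNK1 and mNK2. There 3671 of 11955 genes were called between NK and iNK (30.7%), 1659 higher in NK (13.9%) and 2012 lower (16.8%). Equal numbers did not deviate together in these mice, and 3375 genes were called without the block. Of 11742 genes tested in both genotypes, 2479 were called in the same direction in both and 0 in opposite directions. These were 75.7% of the 3273 cWT calls and 68.5% of the 3621 cKO calls. Itgam rose by 5.78 ± 0.14, and Il7r and Cxcr6 fell, with log2 fold changes of -3.24 ± 0.12 and -3.13 ± 0.12. The median log2 fold change of the T cell list was -3.42 in cKO and -2.73 in cWT, and that of the B cell list was -3.33 and -2.39. The NK minus iNK difference itself differed between the genotypes for 12 of 12258 genes with the block (0.0979%) and for 0 without it by the edgeR test, where 840 and 630 genes passed at an unadjusted p under 0.05.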

How the data were processed

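Counts per gene symbol were used as deposited. Per the labels' protocols, cells were stored in RNAlater, RNA was purified with a Qiagen RNeasy kit and libraries were made with Clontech SMARTer chemistry. Per the submitters' processing notes, reads were checked with FastQC and aligned with STAR 2.5.0 to mm9. The annotation, the counting program and the strand setting are not given in the sources used here, so antisense and overlapping genes share an unknown part of their reads, and no gene coordinates are printed.

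The 12 cWT libraries (4 fractions, 3 libraries each) were fitted together in edgeR 4.0.16 on R 4.3.3 with filterByExpr, TMM factors, robust quasi-likelihood dispersions and the replicate number as a block. This left 6 residual degrees of freedom, and the common biological coefficient of variation was 0.133. Calls were made where the adjusted p was under 0.05. The block was set by the rule of the comparison. Deviations from the group means of same-numbered iNK and NK libraries correlated at 0.318 to 0.744 in the 3 pairs, against -0.674 to 0.153 for unlike numbers. Same-numbered pairs with mNK1 or mNK2 ran from -0.324 (iNK and mNK1) to 0.769 (mNK1 and mNK2). Unlike numbers of these fractions ran from -0.804 (mNK1 and mNK2) to 0.697 (iNK and mNK2). The labels do not say that a number marks an animal. In cKO the correlations of same-numbered iNK and NK libraries were 0.601, -0.292 and -0.296.

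Named were the 3 marker genes, 15 core NK genes, Bach2, the 12 higher and 12 lower called genes described in the text, up to 4 called members of each of 26 lists each way by smallest p, and genes called outside all stages. Genes named beyond this rule (Cd4, Cd8a, Cd79a, S100a8, the T and B cell genes named among the early genes, the genes listed as close to exclusive to a fraction, those called outside the stages by other tools, and the basophil genes) were chosen after their values were seen. The members and lists were chosen with earlier results of these data known. The mixture was fitted by non-negative least squares per replicate number, with each gene weighted by the inverse of its mean CPM plus 1. The test was tried on simulated counts. Alternatives were no block, fits of 6 or 24 libraries, DESeq2 1.42.0, limma 3.58.1 voom with quality weights, RLE factors, other filters and each library left out in turn. The chimera libraries of the series were not used.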

Additional observations from a re-analysis of the deposited data

Results flagged for a closer look

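The difference between NK and iNK was set against the same difference in cKO mice by an interaction term in the fit of 24 libraries, with the replicate block within each genotype. Among the genes named by the rule above, 4 of the 12 called genes stood out by this test. Cd200r3, a basophil gene named below after its values were seen, was also among the 12 (interaction -0.90 ± 0.16, adjusted p = 0.0296). For Cd69 the log2 fold change of NK over iNK was 0.80 lower in cKO (interaction -0.80 ± 0.10, adjusted p = 0.000848), with 525 ± 72.4 CPM in iNK and 112 ± 6.77 CPM in NK of cKO mice against 318 ± 21.4 and 118.3 ± 1.93 CPM in cWT mice (SD, n = 3). For Klrg1 the interaction was 0.71 ± 0.11 (adjusted p = 0.0115), with 40.4 ± 3.95 CPM in iNK and 745 ± 32.5 CPM in NK of cKO mice against 39.2 ± 9.20 and 439.7 ± 55.6 CPM in cWT mice. For Fcmr, a receptor gene of B cells, the interaction was -1.21 ± 0.20 (adjusted p = 0.0212), with 166 ± 57.2 CPM in cKO iNK and 72.97 ± 12.97 CPM in cWT iNK, and the NK fractions were at 12.1 ± 1.62 and 12.6 ± 0.63 CPM. For Tcf7 the interaction was -0.79 ± 0.14 (adjusted p = 0.0296), with 173 ± 12.7 CPM in cKO NK and 292 ± 5.12 CPM in cWT NK. Without the replicate block 0 genes were called by this edgeR test, and same-numbered cKO libraries did not deviate together, so all these results rest on the block.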

How the results depend on the processing

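The count of genes called between NK and iNK was 2376 to 4364 over the alternatives, against 3292, and 2840 without the replicate block. Of the 157 named genes called, 136 were called in all 15 alternatives in which they were tested, and 0 of the 157 changed sign. The signs of named genes that were not called were not followed. Without the replicate block, 459 genes were called between NK and mNK1 (242 higher, 217 lower), 252 were lower in NK than in mNK2, and 0 differed in the NK minus iNK difference between genotypes. When each library was left out in turn, 319 to 880 genes were called against mNK1 (135 to 447 higher, 174 to 433 lower) and 678 to 933 against mNK2 (490 to 677 higher, 188 to 256 lower). The position of NK from iNK to mNK2 was 65.97% to 69.7% over its alternatives, and the mixture shares moved by less than 1 SD except that the iNK share was 19.3% with all tested genes in the fit. The cause of these shifts was not tested. Depth limits genes near 0.150 to 0.224 CPM.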

Other observations

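Genes known from basophils were higher in the NK fraction than in iNK, on a list of 7 genes written after their values were seen. Prss34, a basophil protease gene, had 9.96 ± 5.29 CPM in iNK and 77.5 ± 31.5 CPM in NK (SD, n = 3; log2 fold change 2.95 ± 0.27, adjusted p = 0.000136 by edgeR). Cd200r3, a receptor gene of basophils and mast cells, had 33.8 ± 3.96 CPM in iNK and 75.9 ± 4.49 CPM in NK (1.17 ± 0.10). In cKO mice Cd200r3 had 54.8 ± 19.8 CPM in iNK and 64.9 ± 19.9 CPM in NK (log2 fold change 0.27). This difference between genotypes was called with the replicate block (adjusted p = 0.0296 by the edgeR interaction test). Mcpt8, Fcer1a, Ms4a2, Cpa3 and Gata2 were also called higher in NK, where 14.1% of all tested genes were. The count of 7 of 7 carries no weight of its own, since the genes were picked with their values known. The summed level was 172 to 207 CPM in iNK, 411 to 542 CPM in NK, 548 to 822 CPM in mNK1 and 119.6 to 203 CPM in mNK2. The sums of iNK and NK did not overlap. Not every gene was highest in mNK1, since Prss34 had 65.3 CPM in mNK1 and 33.6 CPM in mNK2. Mcpt8 had 14.4 CPM in iNK and 16.5 CPM in mNK2. Csf2rb and Cxcr2, genes also used by basophils and neutrophils, were highest in mNK1 and lowest in mNK2. The means in iNK, NK, mNK1 and mNK2 were 28.9, 61.5, 98.5 and 17.7 CPM for Csf2rb and 17.5, 46.996, 69.1 and 13.998 CPM for Cxcr2. In cKO mice edgeR called neither between NK and iNK. The log2 fold changes there were 0.25 ± 0.25 for Csf2rb (adjusted p = 0.522) and 0.43 ± 0.20 for Cxcr2 (adjusted p = 0.137).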
